A study of Homo sapiens with 18 samples.

Results

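The SLC30 proteins, also called ZnT proteins, are membrane transporters of the cation diffusion facilitator family, most of which carry zinc out of the cytosol, either across the plasma membrane or into organelles and vesicles. SLC39 (ZIP) proteins work in the other direction, metallothioneins bind zinc and cadmium in the cytosol, and the transcription factor MTF1 switches on metallothionein genes and SLC30A1 by binding metal response elements in their promoters when zinc rises. Cadmium is a toxic metal that binds many of the same cellular sites as zinc. The 9 family members described here are SLC30A1, SLC30A2, SLC30A3, SLC30A4, SLC30A5, SLC30A6, SLC30A7, SLC30A9 and SLC30A10, from a table of 58336 gene IDs. The list goes by gene name, but it was drawn up with earlier results of these data known. It does not cover the whole family, and the counts and sums below are over these 9.

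The samples were 18 poly(A) RNA libraries of HEK293A, an adherent derivative of the human embryonic kidney line HEK293, in 6 groups of 3 biological replicates. Wild-type cells and cells with a double knockout of LATS1 and LATS2, the kinases at the end of the Hippo pathway that restrain YAP and TAZ, were each given water, 250 uM ZnCl2 or 50 uM CdCl2 for 4 h, and the stated purpose was to find how the metal-regulated transcriptome depends on LATS1/2. The water-treated cells of each genotype serve both metals as control, so the zinc and cadmium comparisons of a genotype share 3 libraries. The labels do not say where the genes were edited or whether the knockout line is 1 clone, and the counting does not show small edits. LATS1 read 77.2 to 97.2 CPM (read counts scaled to the size of the library) in the wild-type libraries and 44.0 to 54.5 CPM in those labelled knockout, while LATS2 in water read 16.2 to 16.5 CPM in the wild-type libraries and 18.2 to 18.9 CPM in those labelled knockout, so that in water it was not lower there. In the metals LATS2 was lower in the libraries labelled knockout without overlap, at 36.0 to 40.3 against 44.3 to 50.1 CPM in zinc and 23.8 to 25.7 against 39.0 to 44.7 CPM in cadmium. Below, knockout means the libraries that carry that label.

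Total counts ran from 25478614 to 37148046 per library. Libraries of a group differed by 1.61 to 5.06 times the variance that counting alone gives (chi-square per degree of freedom), and the third zinc library of wild type was the farthest from its group, at 4.98 and 5.06 against the other libraries of its group, which were at 1.88 against each other. Without that library the same number of members passed in the zinc comparison in wild type (6) and in the comparison of genotypes in zinc (8), and 2 in place of 3 in the comparison of zinc responses. VIM, which the HEK293 line expresses, read 174 to 498 CPM, whereas PAX2 stayed at or under 0.268 CPM. Among markers of other cells, the 3 keratinocyte genes summed to at most 0.149 CPM and the 4 kidney tubule genes to 13.3 to 26.9 CPM, nearly all of it LRP2 with UMOD at 0.

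The promoter windows of the 3 members with the largest responses are shown because metal response elements share a core of 7 bases, TGCACNC or TGCGCNC, where N is any base. RefSeq windows (GRCh38.p14) from 250 bases before to 50 bases after the transcription start were found for all 9 members, with 2 starts each for SLC30A3 and SLC30A10, and both strands were searched. Capitals mark the core, which reads in reverse complement where it lies on the other strand. The stretches run 5′ to 3′ on the strand of the gene, which is the minus strand for all 3, and cover chr1:211579162-211579411 (SLC30A1), chr1:211579121-211579147 (the core after the start of SLC30A1), chr1:26046119-26046368 (SLC30A2) and chr2:27275347-27275596 (SLC30A3, start 1).
SLC30A1: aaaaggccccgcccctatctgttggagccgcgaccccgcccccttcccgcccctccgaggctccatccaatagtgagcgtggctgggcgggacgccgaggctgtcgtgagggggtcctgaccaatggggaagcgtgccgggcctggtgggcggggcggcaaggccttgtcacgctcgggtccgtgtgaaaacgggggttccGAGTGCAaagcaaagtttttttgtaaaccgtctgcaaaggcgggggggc
SLC30A1, core after the start: agaccgggccGAGTGCAgctgccgtgg
SLC30A2: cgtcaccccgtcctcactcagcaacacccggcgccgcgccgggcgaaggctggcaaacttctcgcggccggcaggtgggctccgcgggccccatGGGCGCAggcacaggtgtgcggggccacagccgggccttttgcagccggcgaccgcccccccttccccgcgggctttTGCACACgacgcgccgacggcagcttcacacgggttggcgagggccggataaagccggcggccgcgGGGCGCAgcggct
SLC30A3, start 1: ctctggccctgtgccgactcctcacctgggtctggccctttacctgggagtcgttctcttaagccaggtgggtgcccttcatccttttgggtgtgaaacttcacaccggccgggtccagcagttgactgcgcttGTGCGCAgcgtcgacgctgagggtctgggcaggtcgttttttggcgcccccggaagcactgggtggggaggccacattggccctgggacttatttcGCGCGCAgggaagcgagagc

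SLC30A2 held 3 cores, beginning at -156, -79 and -13 bases from the start, where the first transcribed base is counted as 1 and there is no 0. SLC30A1 held 2 cores, at -49 and 25, and SLC30A3 held 2 at its start 1, at -116 and -20, and 1 at its start 2, at -241. SLC30A4 and SLC30A6 held 1 core each, at -124 and -128. None was found in the windows of SLC30A5, SLC30A7, SLC30A9 and SLC30A10, which says only that these letters are not in those windows. Among all 35116 RefSeq windows of that length, 29.6% held at least 1 core, 8.60% at least 2 and 2.30% at least 3. The windows of 5 metallothionein genes held 3 (MT4 and MT1B), 4 (MT1X) and 8 (MT2A and MT1H). A core is a match of letters, and binding was not measured. RefSeq and GENCODE 29 place the starts of SLC30A1, SLC30A2 and SLC30A3 at different bases, and the positions given hold for the RefSeq starts. GENCODE 29 starts SLC30A1 at chr1:211578742, so the core after its RefSeq start lies before that base. It starts SLC30A3 at chr2:27275817, so the stretch shown for start 1 lies inside the GENCODE 29 gene.

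**Figure D1:**
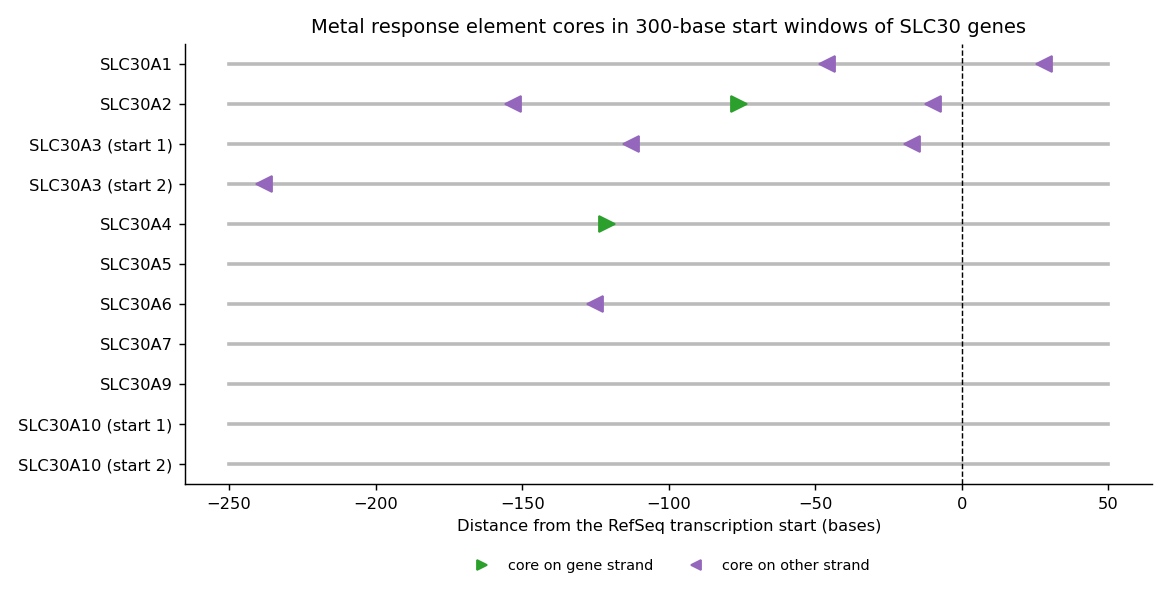
Positions of metal response element cores (triangles, pointing right on the strand of the gene and left on the other strand) in the start windows of the 9 SLC30 genes; the x axis gives the distance from the RefSeq start in bases and the dashed line marks the start. SLC30A2 has 3 cores, SLC30A1 has 2, and 4 genes have none.

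Zinc for 4 h raised SLC30A1 and SLC30A2 many-fold in wild-type cells, and SLC30A3, SLC30A5, SLC30A7 and SLC30A10 by less than 2-fold. Of the 9 members, all of which passed the filter on low counts, 6 were higher after zinc, 0 were lower and 3 did not pass the test (quasi-likelihood test of edgeR, threshold 0.05 after Benjamini-Hochberg adjustment). In the same comparison 61.3% of the 19393 genes tested changed (29.4% higher, 32% lower), so that 6 of 9 is a share near that of all genes. The members' median log2 fold change was 0.45 against -0.01 over all genes. Cadmium in wild type changed 5 of 9, all higher, beside 61.7% of all genes (30% higher, 31.7% lower), with a median of 0.35 against -0.01. In knockout cells zinc changed 6 of 9 (5 higher, 1 lower) beside 55.9% of all genes (28.2% higher, 27.7% lower), and cadmium changed 4 of 9 (3 higher, 1 lower) beside 47% of all genes (23.2% higher, 23.8% lower). The knockout medians were smaller, at 0.18 against 0.001 over all genes for zinc and 0.08 against -0.003 for cadmium. An increase of at least 2-fold that passed was rarer: it was seen for 2 members after zinc and 2 after cadmium in wild type, where 9.17% and 9.62% of all genes did so, and for 3 and 2 members in knockout, where 7.19% and 4.9% did. In these bulk libraries a gain in few cells and a gain in all cells cannot be told apart.

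**Figure D2:**
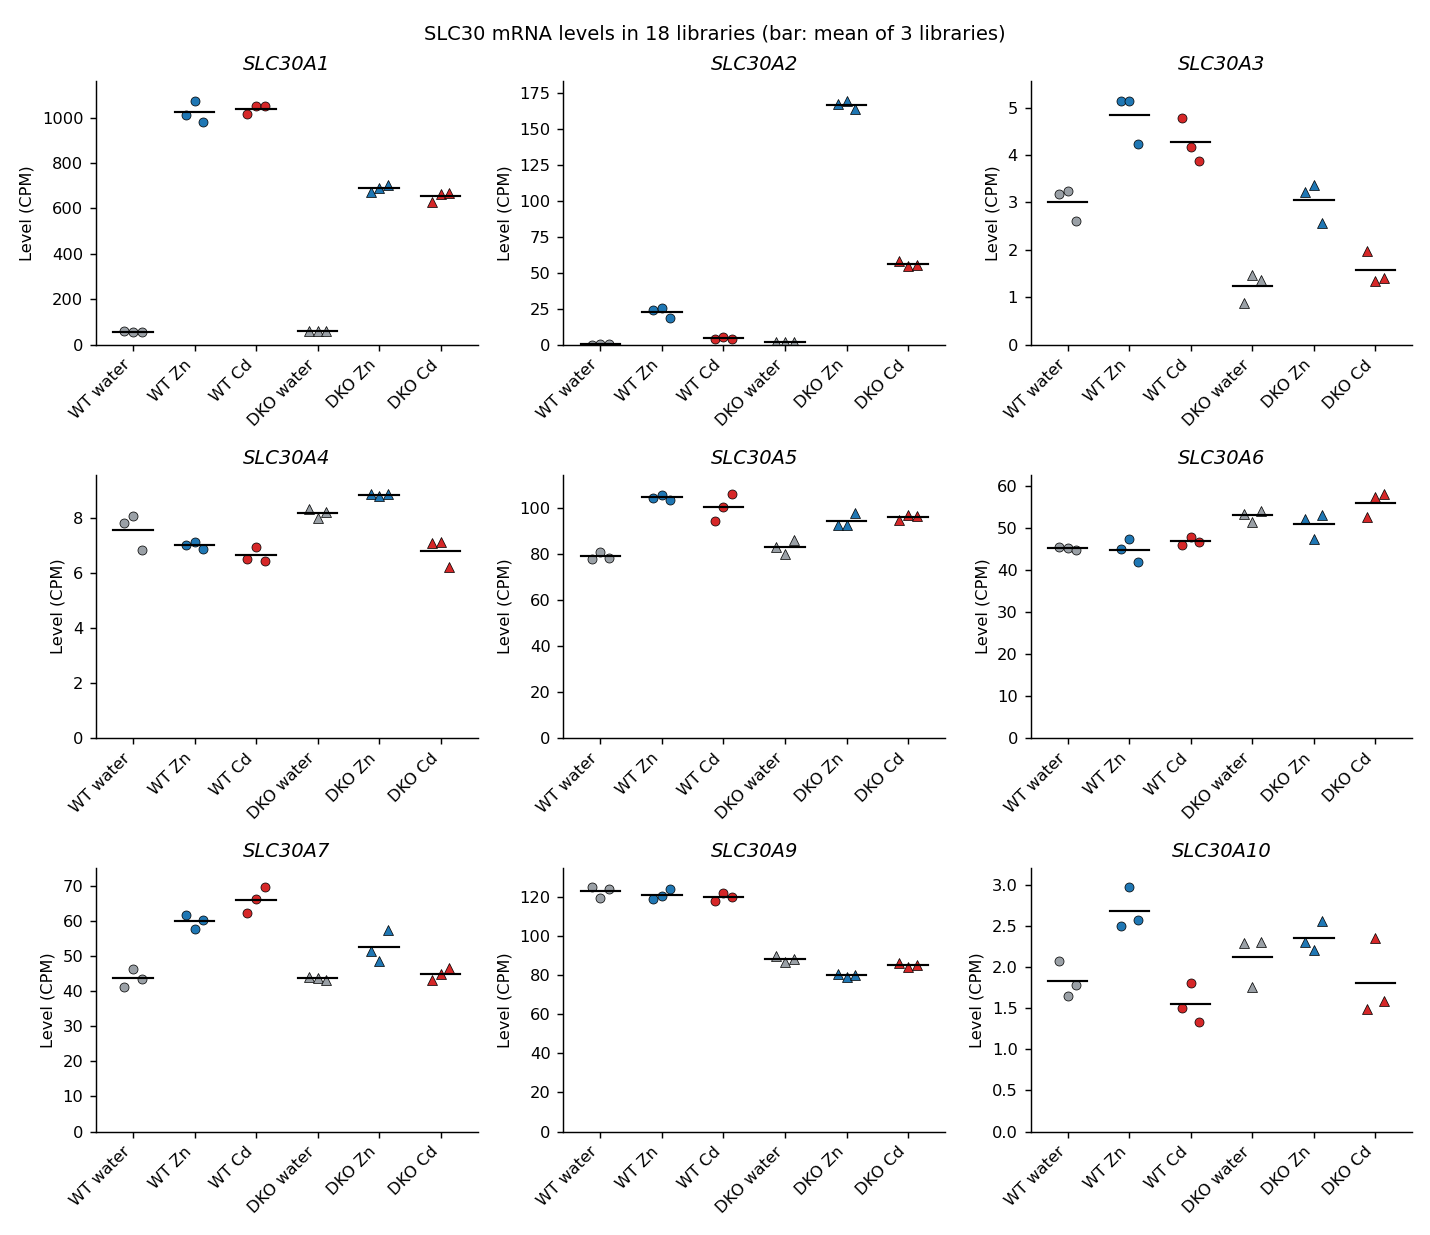
Level of each SLC30 mRNA (y axis, CPM, from 0, a separate scale for each gene) in the 18 libraries, by group (circles wild type, triangles knockout; grey water, blue zinc, red cadmium; bars are means of 3 libraries). SLC30A1 and SLC30A2 lie above the water libraries of their genotype in all 12 metal-treated libraries, with SLC30A2 in cadmium-treated wild type at 4.19 to 4.95 CPM, while SLC30A9 is low in all 9 knockout libraries.

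SLC30A1 (ENSG00000170385, chr1:211571568-211578742, minus strand) is the zinc exporter of the plasma membrane. Its level in the 3 wild-type water libraries was 60.6, 54.3 and 56.0 CPM, and in the knockout water libraries 58.5, 58.2 and 59.4 CPM. After zinc the wild-type libraries read 1011, 1075 and 981 CPM and the knockout libraries 670.0, 692 and 703 CPM. After cadmium the readings were 1015, 1052 and 1049.7 CPM for wild type and 626, 663.5 and 668 CPM for knockout. The water libraries of both genotypes thus overlapped, every metal-treated library lay above every water library, and every metal-treated wild-type library lay above every metal-treated knockout library.

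Zinc raised SLC30A1 by 4.17 ± 0.04 (log2, SE) in wild type, a 17.97-fold increase (adjusted p = 1.6e-43), and by 3.55 ± 0.04, or 11.7-fold, in knockout (adjusted p = 8.5e-42). Cadmium raised it by 4.19 ± 0.04 in wild type, 18.3-fold (adjusted p = 8.2e-44), and by 3.47 ± 0.04 in knockout, 11.1-fold (adjusted p = 1.8e-41). Among the 19393 genes tested, its log2 fold change ranked 115th from the highest for zinc and 135th for cadmium in wild type, and 80th and 73rd in knockout. Levels after the 2 metals did not separate in wild type, where the zinc and cadmium libraries overlapped. In knockout cadmium gave 0.08 ± 0.03 less than zinc on the log2 scale (log2 difference -0.08, adjusted p = 0.045), a call that was lost without replicate 2 or 3 of zinc-treated knockout or replicate 1 of cadmium-treated knockout, with DESeq2 or its size factors and with no filter (adjusted p 0.0086 to 0.21 over all 14 alternatives).

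SLC30A2 (ENSG00000158014, chr1:26037252-26046133, minus strand) loads zinc into vesicles and is known for its role in secretory cells such as those of the mammary gland. It was nearly silent in wild-type water libraries, at 0, 0.726 and 0.113 CPM, which are 0, 22 and 4 reads. Zinc-treated wild-type libraries read 23.9, 25.2 and 18.3 CPM and cadmium-treated ones 4.19, 4.95 and 4.22 CPM. Knockout libraries read 1.76, 1.66 and 1.68 CPM in water, 168, 169.98 and 164 CPM in zinc and 58.1, 54.8 and 55.1 CPM in cadmium. No 2 groups overlapped, and the order from high to low was knockout zinc, knockout cadmium, wild-type zinc, wild-type cadmium, knockout water and wild-type water.

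In wild type the increase of SLC30A2 was 6.29 ± 0.21 (log2, SE) or 78.0-fold for zinc (adjusted p = 1.2e-25) and 3.95 ± 0.30 or 15.5-fold for cadmium (adjusted p = 2.8e-14). The 26 reads of the water group limit these folds: as a ratio of summed reads the zinc increase was 79.0 (95% interval 53.7 to 121, counting error only), and the cadmium increase 15.7 (10.5 to 24.3). Of those 26 reads 22 came from replicate 2, and without that library the increases were 323-fold for zinc and 64.1-fold for cadmium. In knockout, where the water libraries held 50, 53 and 67 reads, zinc raised it by 6.62 ± 0.11, or 98.3-fold (adjusted p = 1.7e-35), and cadmium by 5.04 ± 0.12, or 32.9-fold (adjusted p = 7.9e-30). Its zinc increase ranked 18th of 19393 genes in wild type and 7th in knockout, and its cadmium increase 161st and 21st. Cadmium gave less SLC30A2 mRNA than zinc in both genotypes, by 5.04-fold in wild type (log2 -2.33 ± 0.12, adjusted p = 2.3e-19) and 2.98-fold in knockout (log2 -1.58 ± 0.07, adjusted p = 1.3e-21).

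SLC30A3 (ENSG00000115194, chr2:27253684-27275817, minus strand) fills synaptic vesicles with zinc in neurons and was a low mRNA here. It read 3.18, 3.23 and 2.61 CPM in wild-type water, 5.15, 5.15 and 4.23 CPM in zinc and 4.79, 4.17 and 3.88 CPM in cadmium. The knockout libraries read 0.880, 1.47 and 1.36 CPM in water, 3.22, 3.36 and 2.56 CPM in zinc and 1.99, 1.34 and 1.41 CPM in cadmium. Within wild type both metals lay above water without overlap, whereas in knockout zinc did so and cadmium overlapped water. The zinc increase was 0.70 ± 0.14 (log2, SE; adjusted p = 4.8e-05) in wild type and 1.27 ± 0.18 (adjusted p = 9.0e-08) in knockout, and the cadmium increase 0.52 ± 0.14 (adjusted p = 0.0018) in wild type. Cadmium in knockout, at 0.36 ± 0.20, did not pass (adjusted p = 0.15). The gene shares 42 exon bases with DNAJC5G on the other strand.

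SLC30A4 (ENSG00000104154, chr15:45479611-45522807, minus strand), a transporter of endosomes and other vesicles, read 6.20 to 8.85 CPM over the 18 libraries. Its group means were 7.55 ± 0.642 CPM in water, 6.99 ± 0.120 in zinc and 6.62 ± 0.271 in cadmium in wild type (SD, n = 3), and 8.17 ± 0.165, 8.82 ± 0.0506 and 6.80 ± 0.523 CPM in knockout. Zinc-treated knockout stood above all other groups, and the other neighbours in order of level overlapped. Of its metal responses 1 passed, a fall of 0.26 ± 0.08 on the log2 scale (log2 fold change -0.26, adjusted p = 0.0080) with cadmium in knockout, which did not pass without replicate 3 of that group (adjusted p = 0.069). Cadmium in wild type gave -0.18 ± 0.08 (adjusted p = 0.057), which passed without replicate 3 of water (-0.26, adjusted p = 0.016) or replicate 2 of cadmium (-0.22, adjusted p = 0.047), on the counts of the gene's own strand (-0.22, adjusted p = 0.023) and with scaling by library size alone (-0.31, adjusted p = 0.0019). The counts of the deposited column for the gene's own strand came to 1.11 times those used here, and 2 genes on the other strand, AC025580.2 and HMGN2P46, share 134 and 215 of its exon bases.

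**Figure D3:**
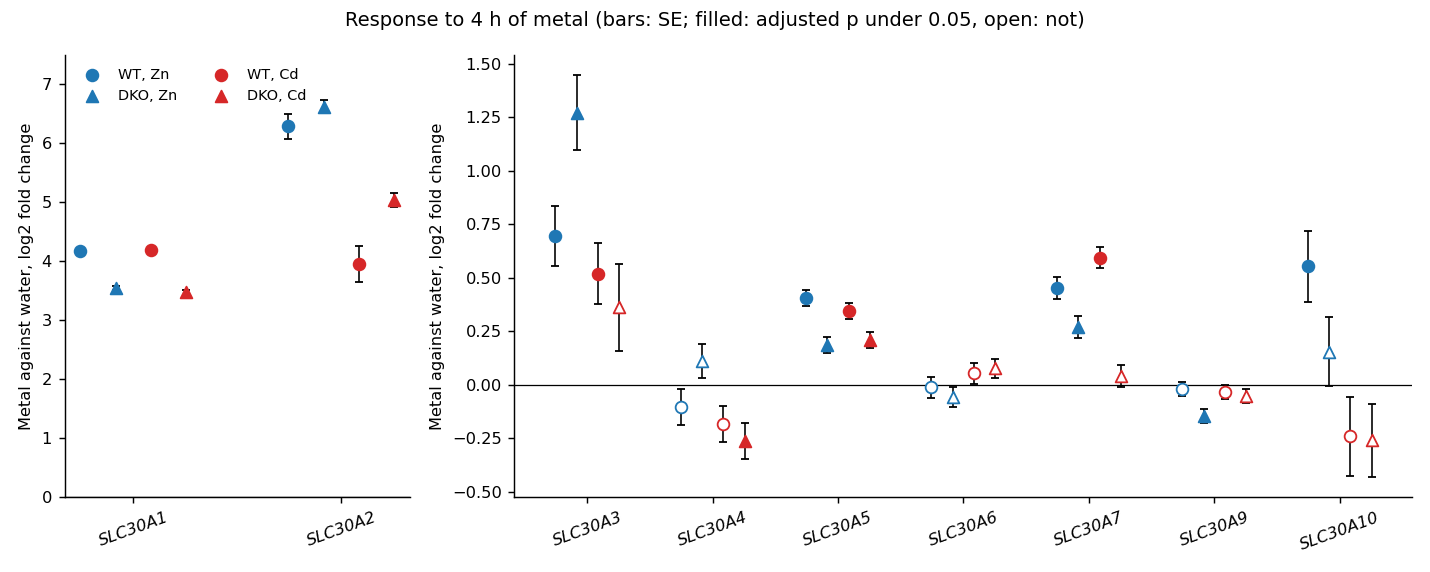
Log2 fold change of each SLC30 mRNA against water after 4 h (y axis; bars are SE; circles wild type, triangles knockout; blue zinc, red cadmium; filled symbols passed the test, open ones did not), with SLC30A1 and SLC30A2 on a scale of their own at left. SLC30A2 spans 3.95 to 6.62 and SLC30A1 3.47 to 4.19, whereas no other member exceeds the 1.27 of SLC30A3.

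SLC30A5, SLC30A6 and SLC30A7 supply zinc to the early secretory pathway, SLC30A5 and SLC30A6 as a pair in 1 complex and SLC30A7 with itself, where zinc enzymes such as alkaline phosphatases take it up. SLC30A5 (ENSG00000145740, chr5:69093646-69131069, plus strand) read 77.8, 80.9 and 78.4 CPM in wild-type water, 104, 106 and 104 CPM in zinc and 94.6, 100.5 and 106 CPM in cadmium. Its knockout libraries read 83.2, 79.99 and 86.0 CPM in water, 92.7, 92.7 and 97.7 CPM in zinc and 94.9, 97.1 and 96.4 CPM in cadmium. In both genotypes every metal-treated library lay above every water library. The increases were 0.41 ± 0.04 (log2, SE; adjusted p = 5.0e-12) for zinc and 0.35 ± 0.04 (adjusted p = 3.1e-10) for cadmium in wild type, and 0.18 ± 0.04 (adjusted p = 6.6e-05) and 0.21 ± 0.04 (adjusted p = 1.4e-05) in knockout. Counts of the gene's own strand came to 1.29 times those used here, and the antisense gene AC010273.1 shares 532 exon bases with it. On that strand's counts the 4 increases were 0.45, 0.40, 0.20 and 0.24.

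SLC30A6 (ENSG00000152683, chr2:32165841-32224379, plus strand), the partner of SLC30A5, read 41.97 to 47.9 CPM in the 9 wild-type libraries and 47.4 to 58.0 CPM in the 9 knockout libraries. Neither metal moved it past the test against water in either genotype, except that cadmium in knockout passed without replicate 1 of that group (0.13, adjusted p = 0.034, compared with 0.08 and 0.18) and zinc in knockout with scaling by library size alone (-0.15, adjusted p = 0.0067). The ratio of SLC30A5 to SLC30A6 per exon length (RPKM, the CPM divided by the exon length in kilobases) was 1.64 ± 0.0369 in water, 2.19 ± 0.112 in zinc and 2.01 ± 0.111 in cadmium in wild type (SD, n = 3), and 1.47 ± 0.0185, 1.74 ± 0.0841 and 1.61 ± 0.0726 in knockout. Every metal-treated library had a higher ratio than every water library of its genotype. Counts of the gene's own strand came to 1.29 times those used here for SLC30A5 and 0.998 times for SLC30A6, so the ratios would be higher on that strand's counts. These ratios are described without a test, and mRNA ratios do not give protein ratios.

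SLC30A7 (ENSG00000162695, chr1:100896076-100981753, plus strand) read 41.1, 46.5 and 43.6 CPM in wild-type water, 61.7, 57.8 and 60.3 CPM in zinc and 62.3, 66.4 and 69.7 CPM in cadmium. In knockout it read 44.2, 43.7 and 43.3 CPM in water, 51.4, 48.8 and 57.5 CPM in zinc and 43.3, 44.9 and 46.8 CPM in cadmium. Water libraries of both genotypes overlapped, and cadmium-treated knockout overlapped them, with 1 of its 3 libraries above the highest water library. Zinc raised it by 0.45 ± 0.05 (log2, SE; adjusted p = 6.1e-10) in wild type and by 0.27 ± 0.05 (adjusted p = 2.2e-05) in knockout. Cadmium raised it by 0.59 ± 0.05 (adjusted p = 4.3e-13) in wild type, and in knockout the mean was 44.98 ± 1.76 CPM against 43.7 ± 0.449 CPM in water (SD, n = 3; adjusted p = 0.57).

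SLC30A9 (ENSG00000014824, chr4:41990472-42090457, plus strand), which works in mitochondria, read 118 to 125 CPM in all 9 wild-type libraries, with the 3 treatments overlapping. Its knockout libraries read 89.9, 87.0 and 88.6 CPM in water, 80.9, 79.0 and 80.3 CPM in zinc and 86.5, 84.4 and 85.3 CPM in cadmium. All knockout libraries lay below all wild-type ones, and the 3 knockout groups did not overlap each other. The fall with zinc in knockout was small, with a log2 fold change of -0.14 ± 0.03 (SE; adjusted p = 0.00025). Both cadmium comparisons and zinc in wild type did not pass, although scaling by library size alone brought all 3 past the threshold (log2 -0.16, -0.16 and -0.08).

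SLC30A10 (ENSG00000196660, chr1:219685427-219958647, minus strand), known as a manganese exporter, was at 1.33 to 2.97 CPM, which is 43 to 92 reads per library. Wild-type libraries read 2.07, 1.65 and 1.78 CPM in water, 2.51, 2.97 and 2.57 CPM in zinc and 1.502, 1.81 and 1.33 CPM in cadmium. Zinc lay above water and above cadmium without overlap in wild type. The zinc increase in wild type was 0.55 ± 0.17 (log2, SE; adjusted p = 0.0041). In knockout the means were 2.12 ± 0.315, 2.36 ± 0.183 and 1.81 ± 0.477 CPM in water, zinc and cadmium (SD, n = 3), and neither metal passed against water. Without replicate 2 of cadmium-treated knockout the cadmium comparison there did pass, with a log2 fold change of -0.47 (adjusted p = 0.039, compared with 0.22 on all libraries). All groups next to each other in order of level overlapped.

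Summed per exon length, the mRNA of the 9 members came to 56.5 ± 0.450 RPKM in wild-type water and 54.4 ± 1.04 RPKM in knockout water (SD, n = 3). It came to 245.6 ± 10.1 RPKM with zinc and 243 ± 5.44 RPKM with cadmium in wild type, and to 219 ± 3.23 RPKM and 181 ± 4.42 RPKM in knockout, sums that are described without a test. In wild-type water SLC30A9 held 30.2% ± 0.662 of this sum, SLC30A5 24.2% ± 0.590 and SLC30A1 18.4% ± 0.936. Own-strand counts came to 1.29 times those used here for SLC30A5 and 0.994 times for SLC30A9, so the order of these genes may depend on the column counted. With zinc and cadmium SLC30A1 held 76.0% ± 0.469 and 78.0% ± 0.204 in wild type, and 57.5% ± 0.583 and 65.9% ± 0.712 in knockout. SLC30A2, which held 0.142% in wild-type water, took 21.9% ± 0.656 of the sum in zinc-treated knockout and 8.86% ± 0.508 in cadmium-treated knockout, compared with 2.61% ± 0.342 and 0.523% ± 0.0448 in wild type. Without SLC30A1 the sums were 46.1, 58.9 and 53.6 RPKM in wild type and 43.7, 92.9 and 61.6 RPKM in knockout for water, zinc and cadmium.

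**Figure D4:**
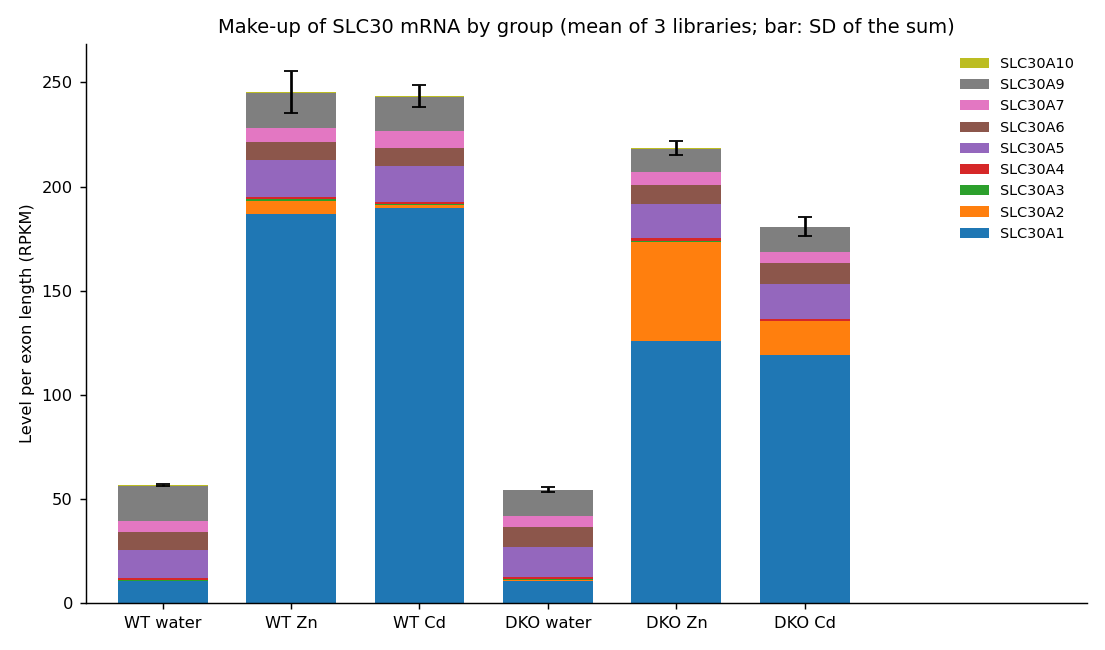
Stacked mean levels of the 9 SLC30 mRNAs per exon length (y axis, RPKM, from 0) in the 6 groups of 3 libraries; the bar on each stack is the SD of the sum. SLC30A1 makes up most of every metal-treated stack, and the SLC30A2 segment is widest in zinc-treated knockout, at 21.9% of the sum.

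Between genotypes in water, 4 of 9 members differed (2 higher and 2 lower in knockout) where 62.9% of all genes did (30.8% higher, 32.1% lower). SLC30A2 was higher by 2.56 ± 0.38 (log2, SE; adjusted p = 2.4e-07), a 5.92-fold difference, or 24.6-fold without replicate 2 of wild-type water. SLC30A6 was higher by 0.23 ± 0.05 (adjusted p = 4.4e-05). SLC30A3 was lower, with a log2 difference of -1.25 ± 0.18 (2.37-fold, adjusted p = 1.2e-07), and SLC30A9 was lower at -0.48 ± 0.03 (1.39-fold, adjusted p = 4.1e-16). For SLC30A1 the water means were 57.0 ± 3.26 CPM (wild type) and 58.7 ± 0.586 CPM (knockout; SD, n = 3), which did not pass (adjusted p = 0.33), although with scaling by library size alone it did (log2 0.10, adjusted p = 0.030). SLC30A5, at 0.07 ± 0.04, did not pass either (adjusted p = 0.094), but did without replicate 2 of knockout water (0.10, adjusted p = 0.042), with scaling by library size alone (0.13, adjusted p = 0.0045) and in 4 other alternatives.

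In zinc 8 of 9 members differed between genotypes (3 higher, 5 lower in knockout) beside 66.7% of all genes (34% higher, 32.7% lower), and in cadmium 6 of 9 (2 higher, 4 lower) beside 67% (32.5% higher, 34.5% lower). SLC30A2 was 7.46-fold higher in knockout in zinc (log2 2.90 ± 0.07, adjusted p = 2.0e-29) and 12.6-fold higher in cadmium (3.66 ± 0.10, adjusted p = 6.2e-28). SLC30A1 was 1.49-fold lower in zinc (log2 -0.57 ± 0.03, adjusted p = 1.5e-18) and 1.59-fold lower in cadmium (-0.67 ± 0.03, adjusted p = 1.0e-20). SLC30A6 was higher in both (0.19 and 0.26), and SLC30A3 (-0.67 and -1.41), SLC30A7 (-0.19 and -0.56) and SLC30A9 (-0.60 and -0.49) were lower in both. In zinc SLC30A4 was also higher (0.34 ± 0.08, adjusted p = 0.00045) and SLC30A5 lower (-0.15 ± 0.04, adjusted p = 0.00056). In cadmium neither passed, with SLC30A5 at -0.06 ± 0.04 (adjusted p = 0.13), or -0.12 without replicate 1 of cadmium-treated wild type (adjusted p = 0.0088). The genotypes differed also in markers: the summed level of 6 fibroblast genes was 12.96 to 14.2 CPM for wild type and 49.2 to 55.5 CPM for knockout in water, 11.9 to 14.9 and 55.0 to 62.6 CPM in zinc, and 10.7 to 12.4 and 51.0 to 56.4 CPM in cadmium. COL1A1 and COL3A1 made up most of these sums and the fibroblast gene DCN was at or under 0.0341 CPM in all libraries. LUM also averaged higher in knockout under each treatment. COL1A2 went the other way, at 0.326, 0.155 and 0.171 CPM in wild type and 0.0507, 0.0205 and 0.0338 CPM in knockout (means in water, zinc and cadmium). PDGFRA averaged lower in knockout in zinc (1.40 against 1.89 CPM) and higher in water and cadmium. The summed level of the 4 HEK293 genes, nearly all of it VIM, was 335 to 342, 406 to 460 and 446 to 503 CPM for wild type and 184 to 190.5, 224 to 238 and 239.5 to 248 CPM for knockout, in the same order. The other HEK293 markers did not share this direction: LHX1 averaged 4.38, 4.23 and 5.28 CPM in wild type and 6.56, 9.91 and 10.8 CPM in knockout, and INA 0.0110, 0.0222 and 0.0426 CPM in wild type and 3.54, 3.46 and 3.73 CPM in knockout. Their part in the SLC30 differences was not tested.

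The response itself was compared between genotypes by an interaction term. For zinc 3 of 9 members responded differently (0 more upward, 3 more downward in knockout) beside 24.6% of all genes (14.1% upward, 10.5% downward), and for cadmium 2 of 9, both more downward, beside 28.1% (14% upward, 14.1% downward). The zinc response of SLC30A1 was smaller in knockout by 1.53-fold (log2 -0.62 ± 0.05, adjusted p = 5.5e-12) and its cadmium response by 1.64-fold (log2 -0.72 ± 0.05, adjusted p = 1.1e-13). Leaving out any 1 library moved these differences only between -0.66 and -0.58 for zinc and between -0.76 and -0.68 for cadmium. SLC30A5 responded less to zinc in knockout (-0.22 ± 0.05, adjusted p = 0.0016), while for cadmium its difference of -0.14 ± 0.05 did not pass (adjusted p = 0.051, and 0.0079 to 0.22 over 20 alternatives), being called without replicate 2 of wild-type water, replicate 1 of cadmium-treated wild type or replicate 2 of knockout water. SLC30A7 responded less to cadmium in knockout (-0.55 ± 0.07, adjusted p = 1.5e-07), and its zinc difference of -0.18 ± 0.07 did not pass (adjusted p = 0.058), with 9 of 20 alternatives past the threshold, among them the omission of replicate 2 of wild-type water, replicate 2 of zinc-treated wild type or replicate 3 of zinc-treated knockout. SLC30A9 passed narrowly for zinc (-0.12 ± 0.05, adjusted p = 0.040), a call lost in 10 of 20 alternatives. These were the fit with no filter (adjusted p = 0.10) and the omission of any 1 library of the 4 groups other than replicate 1 of wild-type water, replicate 1 of zinc-treated wild type and replicate 2 of knockout water (adjusted p 0.051 to 0.12).

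For the members with low counts the response difference was less certain. SLC30A2 gave 0.33 ± 0.50 for zinc (adjusted p = 0.70) and 1.09 ± 0.52 for cadmium (adjusted p = 0.12). Both values turned negative without replicate 2 of wild-type water, at -1.72 (adjusted p = 0.077) and -0.96 (adjusted p = 0.39), and the cadmium difference passed without replicate 1 or replicate 3 of that group (1.57 and 1.55, adjusted p = 0.015 and 0.039). It also passed with DESeq2 (1.07, adjusted p = 0.012) and with no filter (1.12, adjusted p = 0.012), so that with 26 reads in wild-type water a different fold response of SLC30A2 was not resolved. SLC30A3 gave 0.58 ± 0.23 for zinc (adjusted p = 0.063), which passed without replicate 3 of wild-type water, replicate 2 of knockout water or replicate 3 of zinc-treated knockout (adjusted p 0.028 to 0.042). For cadmium SLC30A3 gave -0.16 ± 0.25 (adjusted p = 0.70), and SLC30A10 gave -0.40 ± 0.23 for zinc (adjusted p = 0.23). SLC30A4, which had more reads than these, gave -0.08 ± 0.12 for cadmium (adjusted p = 0.68). In these cases the metal call against water passed in a single genotype, but the difference between genotypes did not pass.

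**Figure D5:**
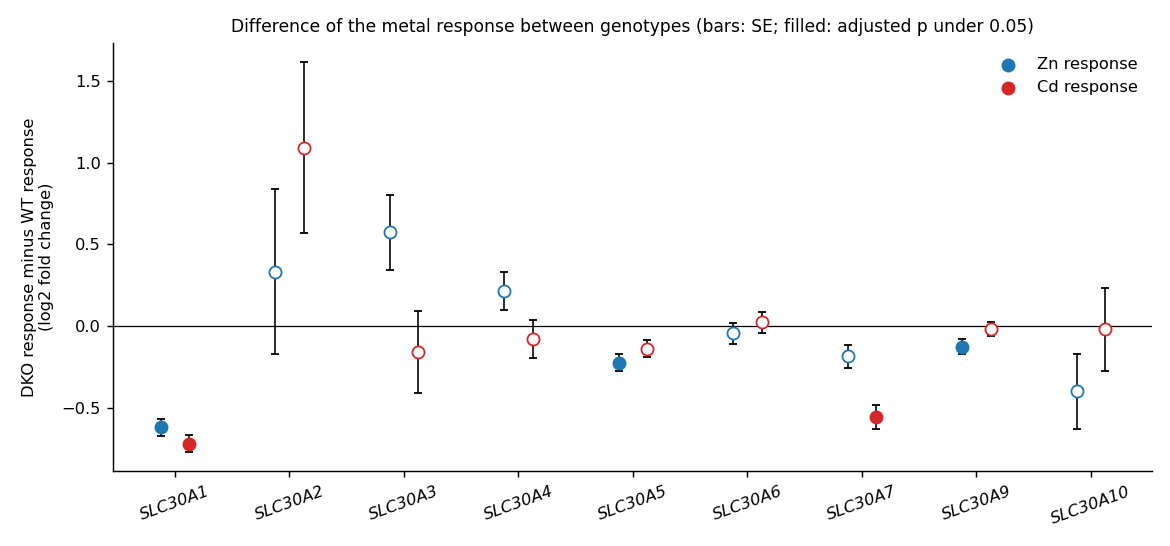
Knockout response minus wild-type response for each SLC30 mRNA (y axis, difference of log2 fold changes against water; bars are SE; blue zinc, red cadmium; filled symbols passed the test, open ones did not). SLC30A1 lies at -0.62 and -0.72 and SLC30A7 at -0.55 for cadmium, while SLC30A2 has the widest SE, 0.50 and 0.52.

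The direct comparison of the metals separated 3 of 9 members in wild type (1 higher and 2 lower with cadmium) beside 52.3% of all genes (27.3% higher, 25% lower). In knockout it separated 8 of 9 (2 higher, 6 lower) beside 48.2% (23.9% higher, 24.3% lower). Doses differed, at 250 uM for zinc and 50 uM for cadmium, so these are differences between the treatments given. In wild type SLC30A2 (given above) and SLC30A10 (-0.80 ± 0.17 on the log2 scale, adjusted p = 0.00015) were lower with cadmium, and SLC30A7 was higher (0.14 ± 0.05, adjusted p = 0.014). The call for SLC30A7 was lost without replicate 2 of zinc or replicate 3 of cadmium and with scaling by library size alone (adjusted p up to 0.15). In knockout, cadmium gave lower levels than zinc for SLC30A1, SLC30A2, SLC30A3 (-0.91 ± 0.17, adjusted p = 2.8e-05), SLC30A4 (-0.37 ± 0.08, adjusted p = 0.00022), SLC30A7 (-0.23 ± 0.05, adjusted p = 0.00029) and SLC30A10 (-0.42 ± 0.17, adjusted p = 0.042), and higher levels for SLC30A6 (0.13 ± 0.05, adjusted p = 0.017) and SLC30A9 (0.09 ± 0.03, adjusted p = 0.018). The count was 5 without replicate 2 of zinc-treated knockout or without replicate 1 of cadmium-treated knockout, because SLC30A1 and SLC30A9 were lost in both cases, SLC30A6 in the first and SLC30A10 in the other. The call for SLC30A6 was also lost without replicate 2 or 3 of cadmium-treated knockout, and that for SLC30A10 without replicate 1 or 3 of zinc-treated or replicate 3 of cadmium-treated knockout. With scaling by library size alone the knockout calls for SLC30A6 and SLC30A9 were lost (adjusted p = 0.0502 and 0.077), and SLC30A5 was lower with cadmium in wild type (-0.12, adjusted p = 0.0081).

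The other genes of zinc handling were counted from lists. Of MTF1, TMEM163 and GPR39, zinc raised 2 and lowered 1 in wild type and raised 2 in knockout, and cadmium raised 1 in wild type and 2 in knockout. Of all genes zinc raised 29.4% and lowered 32% in wild type and raised 28.2% in knockout. Cadmium raised 30% of all genes in wild type and 23.2% in knockout. MTF1, the metal-sensing transcription factor, read 36.1 ± 1.49 CPM in water, 68.9 ± 4.14 CPM in zinc and 51.4 ± 1.42 CPM in cadmium in wild type, and 31.6 ± 2.25, 60.2 ± 1.54 and 34.7 ± 0.587 CPM in knockout (SD, n = 3). It rose with zinc by 0.93 ± 0.05 and 0.92 ± 0.05 (log2, SE) in wild type and knockout, and with cadmium by 0.51 ± 0.05 and 0.12 ± 0.05. Its rise with cadmium in knockout passed narrowly (edgeR adjusted p = 0.044). The zinc response did not pass for a difference between genotypes (log2 -0.01, adjusted p = 0.95), whereas the cadmium response was smaller in knockout (-0.39 ± 0.07, adjusted p = 5.0e-05). TMEM163, a zinc transporter whose name lies outside the SLC30 series although it belongs to the same wider family, rose in knockout by 0.33 with zinc and 0.24 with cadmium. The cadmium call was narrow (edgeR adjusted p = 0.047). Those cadmium libraries, at 5.62 to 6.76 CPM, overlapped the knockout water libraries, at 4.67 to 5.83 CPM. TMEM163 also passed upward with zinc in wild type, from 7.96 ± 0.198 to 9.84 ± 0.695 CPM. For neither metal did its response difference between genotypes pass. GPR39, a zinc-sensing receptor, was near the limit of detection, at 13 reads in wild-type water and 3 in wild-type zinc (ratio 0.236, 95% interval 0.0432 to 0.859). Its fall there passed narrowly (edgeR adjusted p = 0.049).

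Of 11 metallothionein genes listed 6 could be tested. In wild type 5 of 6 rose and 0 fell with each metal, and in knockout 6 of 6 rose with each, with median log2 fold changes of 4.53 (zinc) and 4.598 (cadmium) in wild type and 6.19 and 6.39 in knockout. Over all genes 29.4% rose with zinc and 30% with cadmium in wild type, and 28.2% and 23.2% in knockout. MT1X was the largest increase in wild type, 6.46 ± 0.07 (log2, SE) for zinc and 6.19 ± 0.07 for cadmium. MT1G went from 2 to 773 reads with zinc in knockout, a ratio of 409 with a 95% interval of 113 to 3383, and from 2 to 27 reads in wild type (ratio 13.8, interval 3.47 to 120). MT1B, with 0 reads in knockout water and 231 in knockout cadmium, was at least 85.0-fold higher there, with 3 reads over the group as the floor. In the comparison of genotypes all 6 were higher in knockout in zinc and all 6 in cadmium, with medians of 2.41 and 3.60 on the log2 scale. Of all genes 34% and 32.5% were higher there. In knockout the smallest increase was that of MT1F with zinc (5.43 ± 0.09) and of MT2A with cadmium (5.28 ± 0.06). The response difference passed upward for 1 of 6 with zinc, MT1G, which had 2 reads in the water group of each genotype. With cadmium it passed upward for 2 of 6, MT1G and MT1F. Among all genes 14.1% passed upward with zinc, so that 1 of 6 is near that share, and 14% with cadmium. The response difference of SLC30A1 was downward for both metals.

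The SLC39 importers were 12 tested of 14 listed. With zinc 7 fell and 0 rose in wild type, and 4 fell and 2 rose in knockout, and with cadmium 5 fell and 2 rose in wild type, and 5 fell and 1 rose in knockout. Over all genes 29.4% rose and 32% fell with zinc in wild type, 28.2% and 27.7% with zinc in knockout, 30% and 31.7% with cadmium in wild type, and 23.2% and 23.8% with cadmium in knockout, so that the 4 of 12 and 2 of 12 with zinc in knockout are near the shares of all genes. SLC39A3, an importer of the plasma membrane, fell from 24.5 ± 1.19 to 12.2 ± 0.358 CPM with zinc in wild type (SD, n = 3; log2 fold change -1.01 ± 0.07, adjusted p = 2.7e-16). SLC39A10 was the lowest with both metals in knockout, where it fell from 66.6 ± 3.19 CPM to 25.3 ± 1.47 CPM with zinc and 40.6 ± 1.21 CPM with cadmium (log2 -1.40 and -0.72). The zinc response differed between genotypes by -0.45 ± 0.07 for SLC39A10 and 0.43 ± 0.09 for SLC39A3 (log2, SE, knockout minus wild type). Each difference was smaller than the zinc fall given, so by these estimates both genes fell with zinc in both genotypes. SLC39A13 was the lowest with cadmium in wild type (-0.50 ± 0.07) and SLC39A9 the highest (0.28 ± 0.04), and SLC39A6 fell least of those that passed with zinc in wild type (-0.10 ± 0.04). The importers' medians were -0.11 and -0.04 in wild type and -0.10 and -0.06 in knockout, near the all-gene medians of -0.01 to 0.00.

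For the 3 SLC30 genes that changed at least 2-fold with a metal, the genes whose log2 levels followed them most closely over the 18 libraries were found by Pearson's r among 11107 genes. These r values are descriptions over libraries that share treatments. SLC30A1 was followed most closely by MCL1, a BCL2-family survival gene (r = 0.996), CHORDC1, an HSP90 cochaperone (r = 0.996), and the MAP kinase phosphatase DUSP8 (r = 0.992). MCL1 read 274, 1870.1 and 1905 CPM in wild-type water, zinc and cadmium and 269.96, 1352 and 1627 CPM in knockout, with lower levels in metal-treated knockout than in metal-treated wild type. SLC30A2 was followed most closely by FGD4 (r = 0.988), the long noncoding RNA MALAT1 (r = 0.977) and the axonemal dynein gene DNAH17 (r = 0.973). FGD4 spanned only 9.38 to 25.3 CPM in group means, compared with 0.280 to 167 CPM for SLC30A2. SLC30A3 was followed by the histone gene HIST1H2BK (r = 0.972), MIER2 (r = 0.967) and CDK11B (r = 0.966).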

How the data were processed

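The members and the gene lists were chosen with earlier results of these data known. Per the labels' protocols, TriZol RNA went into libraries of the stranded TruSeq mRNA kit (Illumina). STAR and the builds hg38 and GRCh38.p13 are named in the submitters' processing notes, and for the STAR version, annotation and read counting the entry is: not given in the sources used here. The deposited values are raw read counts per Ensembl gene, both strands together. The deposited table of the series equals the corresponding column of all 18 sample files, and the deposited column of the opposite strand held 5.24% to 5.94% of the both-strand total. Gene IDs were named through GENCODE 29, which held 58216 of 58336.

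Counts were tested with edgeR 4.0.16 in R 4.3.3 (quasi-likelihood test, TMM scaling, filterByExpr with a minimum count of 10), on all 18 libraries with 1 spread estimate, and p-values were adjusted by Benjamini-Hochberg over 19393 genes within each of the 11 comparisons (threshold 0.05). SE is the absolute log2 fold change divided by the square root of F. Levels are CPM on TMM-scaled library sizes, and RPKM divides them by the GENCODE 29 exon length. Ratios of summed reads carry exact 95% intervals, which like the floor of 3 reads cover counting error only. The genes most alike were sought by Pearson's r of log2(CPM + 0.5) among genes with a mean of at least 5 CPM that carry a symbol other than a clone name and do not overlap the member. Named genes were all members, the 3 most alike for members past 2-fold, and from each list the highest and lowest that passed, printed for the metal responses only; the highest importer in knockout is not reported here. The script was tested on simulated data. Alternatives were DESeq2 1.42.0 (Wald test), its size factors, library size alone, no filter, at least 5 CPM in at least 3 libraries, the strand column, only the groups compared, a replicate block and leaving out each library. Replicate numbers were not treated as pairs in the main fit. None of 45 same-number pairs correlated over 0.1 (-0.025 to 0.086). Their median r was 0.016, compared with -0.0076 for other pairs, and 16 of 18 libraries were closest to their own number. A weak link by number is therefore not excluded.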

Additional observations from a re-analysis of the deposited data

Results flagged for a closer look

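Tests of the difference between genotypes singled out 5 results, all with the smaller or more downward response in knockout. For zinc these were SLC30A1, with a log2 difference of -0.62 between the knockout and wild-type responses, SLC30A5 at -0.22 and SLC30A9 at -0.12. For cadmium they were SLC30A1 at -0.72 and SLC30A7 at -0.55. The 3 of 9 members for zinc stand beside 24.6% of all genes (10.5% downward), and the 2 of 9 for cadmium beside 28.1% (14.1% downward). The call for SLC30A9 was not stable, with adjusted p 0.011 to 0.12 over 20 alternatives. The zinc and cadmium differences rest on the same water libraries. SLC30A1 started from overlapping levels in water and SLC30A7 likewise, so for these genes the difference lies in the metal-treated libraries, whereas SLC30A9 was already lower in knockout water. Groups of 3 libraries are too small for a test of single outlying samples.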

How the results depend on the processing

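Log2 values were followed for 67 of the 99 pairs of member and comparison, those with an adjusted p under 0.2 and all of SLC30A2, over 992 alternatives in all. Direction and side of the threshold held in 917, a call was gained in 39 and lost in 33, and the sign turned in 3. The sign turned for SLC30A6 with cadmium in knockout, not called, under scaling by library size alone (-0.037), and for the SLC30A2 response differences, which over single omitted libraries ran from -1.72 to 0.81 for zinc and from -0.96 to 1.57 for cadmium. The number of members called for cadmium against zinc in knockout, 8 with all libraries, ran from 5 to 7 over single omitted libraries. With the replicate number as a block, 5 members in place of 3 passed for the zinc response difference, SLC30A3 (0.57, adjusted p = 0.041) and SLC30A7 (-0.18, adjusted p = 0.034) being gained, and SLC30A5 was gained for cadmium (-0.14, adjusted p = 0.034). It changed no other call among the results followed, and 16 of 18 libraries were closest to their own number, which is a hint from the data and not part of the design. The cause of these changes was not tested.

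Scaling by library size alone moved the median of all genes to -0.13 with cadmium in wild type and -0.12 in knockout, and the share of higher among changed genes from 48.6% to 35.5% (cadmium, wild type), from 50.4% to 37.2% (zinc, knockout) and from 49.3% to 28.7% (cadmium, knockout). Under it SLC30A9 was lower with both metals in wild type and SLC30A6 with zinc in knockout. SLC30A3 and SLC30A10 drop out of the test at a minimum of 5 CPM. Depth limits SLC30A2 in wild-type water, with 26 reads in 3 libraries, and SLC30A3 and SLC30A10, with 25 to 153 and 43 to 92 reads per library.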

Other observations

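Among 8 transporters of other metals, SLC40A1 (ferroportin, the iron exporter of the plasma membrane) was the lowest of those that passed with cadmium in both genotypes. It fell from 8.44 ± 0.220 to 0.990 ± 0.539 CPM in wild type (SD, n = 3; log2 fold change -3.07 ± 0.17) and from 12.5 ± 1.22 to 2.63 ± 0.509 CPM in knockout (-2.21 ± 0.13), and its cadmium response differed between genotypes by 0.86 ± 0.25 (edgeR adjusted p = 0.0076). With zinc in knockout it fell to 8.14 ± 0.318 CPM (log2 -0.60 ± 0.11), and in zinc-treated wild type it read 5.35 ± 0.867 CPM. With cadmium 2 of the 8 rose and 4 fell in each genotype, and with zinc 3 rose and 5 fell in wild type and 1 rose and 4 fell in knockout. Among all genes the share that changed was 61.7% with cadmium and 61.3% with zinc in wild type, and 47% and 55.9% in knockout. ATP2C1, a calcium and manganese pump of the Golgi, was the highest with zinc in wild type (0.17 ± 0.03), the copper importer SLC31A1 with cadmium in wild type (0.28 ± 0.03), and the copper pump ATP7A with zinc in knockout (0.11 ± 0.05). SLC31A2, at 20 reads in knockout water and 36 in knockout cadmium, had a ratio of 1.99 with a 95% interval of 1.12 to 3.62.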
